A study of Mus musculus with 15 samples.

Results

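The 3 joints sampled while their arthritis score was declining, from animals 15, 21 and 10, were set against the 5 joints sampled early in arthritis, from animals 16 and 18 (day 0 to 3 of clinical arthritis) and animals 33, 43 and 52 (week 1 to 2). These 8 arrays of the 15 in the series were chosen by their labels alone, and all 19938 genes with a value were tested. All arthritic animals were male DBA/1JBom mice with collagen-induced arthritis. Chicken type II collagen (100 µl at 2 mg/ml) had been injected into the skin with complete Freund's adjuvant (0.5 mg/ml) on day 1, and a boost in incomplete adjuvant followed on day 21. One whole tarsal joint per animal was hybridised to a Mouse Gene 1.0 ST array, without pooling. The early joints had a clinical score of 3 when taken. The declining joints had held a score of 3 for more than 2 weeks per the sample labels (at least 3 weeks per the design text), and the score had then dropped by at least 1. The 3 control joints came from animals in which arthritis was not induced, and 3 joints of week 3 to 4 served only to estimate the spread and to compare array codes. Per the study's methods, fur, skin and the muscle that could be seen were taken off before collection, and the other soft tissues stayed. Every value is therefore an average over bone, marrow, synovium, tendon, fat and what was left of muscle and skin. Joint tissue was present in both groups: Prg4, which encodes the lubricant lubricin of synovium and cartilage surface, lay between 12.01 and 12.45 on the log2 scale in declining joints and between 12.47 and 12.83 in early joints, and the cartilage collagen Col2a1 lay between 7.44 and 8.11 and between 6.97 and 7.45.

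In collagen-induced arthritis, an immune response against type II collagen brings macrophages and neutrophils into the synovium, and activated fibroblasts of the synovium and the tissue around tendons secrete cytokines, chemokines and matrix-degrading enzymes. Osteoclasts, the bone-resorbing cells, erode bone at the same time as periosteal cells lay down cartilage and new bone. Clinical swelling in this model can subside while the remodelling of the skeleton continues.

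Arrays have no sequencing depth, and precision is limited by their number. The array of decline animal 10 had the narrowest range of the 8 arrays (SD over genes 1.28, against 1.51 to 1.62 in early joints). Its mean correlation with the other 2 declining arrays was 0.918. The control arrays were all narrower than the early arrays, with SDs of 1.22 to 1.46, the lowest in control animal 2. Comparisons with control rest on these arrays. The array names in the study carry a letter code whose meaning is not given. All 5 early arrays carry 1 code and all 3 declining arrays the other, so that code and phase cannot be told apart in this comparison. The codes meet only in week 3 to 4, where animal 54 has the code of the early arrays and animals 29 and 60 that of the declining arrays. A further array of day 0 to 3, animal 57, failed the study's quality control and was left out.

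Declining joints differed from early joints at 1048 of 19938 genes, 577 higher (2.89%) and 471 lower (2.36%), by limma at an adjusted p under 0.05. Of these, 257 were higher and 226 lower by at least 2-fold. The median change over all genes was 0.04 on the log2 scale. The 10 largest falls held inflammatory genes (Saa3, Il6, Cd53), the matrix protease Mmp3 and the retinoic acid binding protein Crabp2, beside genes of RNA and protein handling. The 10 largest rises were without exception genes of the outer skin. Both sets of 10 were ranked only among called genes whose declining and early joints did not overlap. The lack of overlap in them is therefore a condition of their choice, not a result. Leaving out single joints brought the number of differing genes to between 490 (without decline animal 10) and 1331 (without control animal 2). Without decline animal 10 the split was 355 higher and 135 lower, and with the array of animal 57 added it was 153 higher and 19 lower. No gene passed with the letter code in the fit, where 1063 had an unadjusted p under 0.05. The effect of the code in that fit comes only from animal 54 against animals 29 and 60 of week 3 to 4. Controls, which carry no code, were entered like the early arrays. Every value given with the letter code in the fit rests on these joints and is less precise (for Cd53 the SE was 0.66, against 0.33). Such a value cannot separate code from phase.

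**Figure D1:**
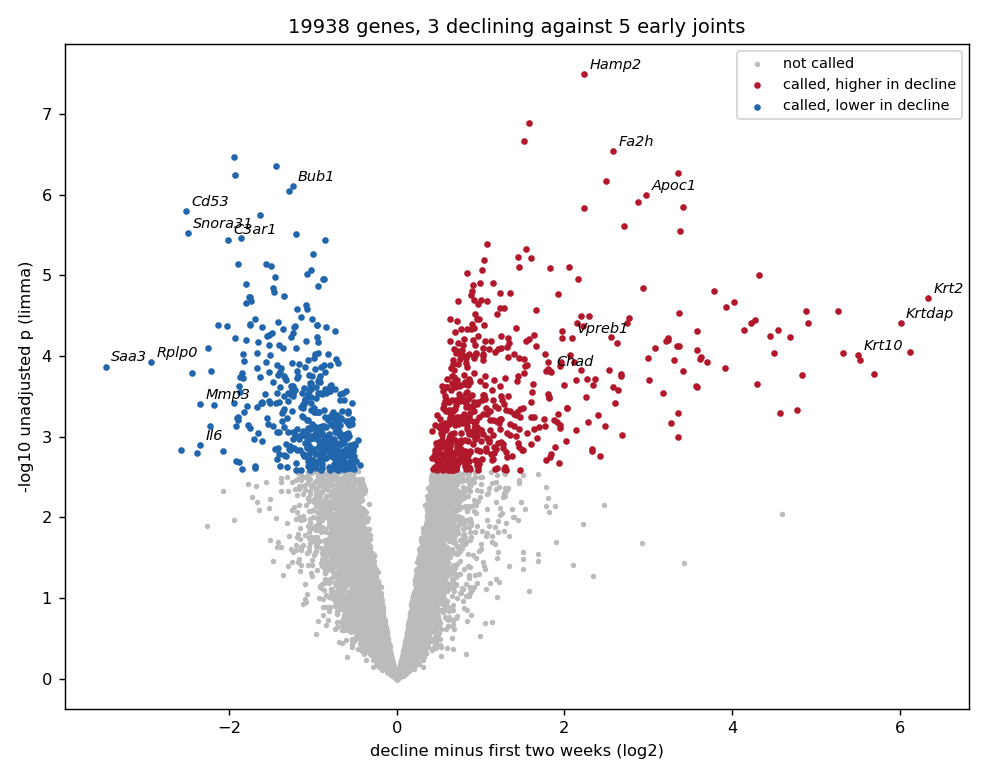
Each point is 1 of 19938 genes. The horizontal axis is the log2 difference between 3 declining and 5 early joints, and the vertical axis the -log10 of the unadjusted limma p. Red points are the 577 genes called higher and blue points the 471 called lower in decline. Among the labelled genes, the epidermal genes Krt2, Krtdap and Krt10 lie farthest to the right and Saa3 farthest to the left.

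Against control joints, 2046 genes were higher (10.3%) and 2162 lower (10.8%) in the early joints. Of the 2046 early rises, 401 were lower in declining than in early joints and 0 were higher. Of the 2162 early falls, 265 were higher in declining joints and 0 were lower. These counts share the 5 early arrays, which by itself links them, and they are given as description only. Over the early rises the median difference from control was 0.91 log2 in early joints and 0.37 in declining joints. Over the early falls it was -0.61 and -0.31. Against control, limma called 0 genes in declining joints at an adjusted p under 0.05, while 2615 had an unadjusted p under 0.05, and the same comparison without moderated variances called 0 as well. The count of 0 depended on single joints: without decline animal 10, 265 genes were higher and 118 lower than in controls, and 127 genes were called without control animal 1, 58 without control animal 3 and 29 without animal 54 of week 3 to 4.

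Serum amyloid A3 (Saa3), an acute phase protein made locally by fibroblasts and macrophages, showed the largest fall. Its log2 values were 12.04 and 12.20 at day 0 to 3 and 10.80, 11.57 and 11.81 at week 1 to 2, against 8.48, 9.37 and 6.79 in decline and 8.22, 5.93 and 6.28 in controls. By the choice of genes no declining joint reached the lowest early joint, while 2 of the 3 declining joints lay above all controls. The difference between declining and early joints was -3.47 ± 0.68 (SE) on the log2 scale, an 11.1-fold lower level (adjusted p 0.0113). The difference was -2.76 without decline animal 10 (adjusted p 0.0533) and -5.32 with the letter code in the fit (adjusted p 0.485). In whole joints, fewer cells of a type and less RNA per cell cannot be told apart, for this gene and for those that follow.

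Among 19 cytokine genes 3 were lower and 1 higher in declining joints, read against 2.36% and 2.89% of all genes. Il6, which encodes a central cytokine of synovitis, had log2 values of 7.87, 6.74, 5.81, 8.43 and 8.49 in early joints and 5.02, 5.49 and 4.84 in decline, against 6.07, 5.33 and 3.74 in controls. The declining joints lay below every early joint, by the same choice of genes, and they lay within the control range. The fall was -2.35 ± 0.59 log2, or 5.09-fold (adjusted p 0.0336). Interleukin 1 beta (Il1b), a product of activated macrophages and neutrophils, fell by 1.83 ± 0.37 log2 and lay between 6.75 and 7.05 in the 3 declining joints, with controls between 6.31 and 6.92. Lif was lower by 0.94 log2 without having been called in early joints against control (0.54 log2, adjusted p 0.127). Its values were 7.07 and 6.84 at day 0 to 3 but 6.01, 6.17 and 6.04 at week 1 to 2, with controls at 5.87, 6.01 and 5.77. The decline difference was -1.46 log2 against day 0 to 3 and -0.58 against week 1 to 2. Tslp, an epithelial cytokine, was the only cytokine of the list that was higher in decline, with a difference of 0.67 log2.

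Of 25 chemokine genes 5 were lower and 1, the eosinophil attractant Ccl11, was higher. Cxcl5, a neutrophil attractant, fell furthest: early values of 8.15, 7.74, 6.14, 7.66 and 8.60 compared with 5.26, 5.96 and 5.22 in decline and 4.93, 5.17 and 5.42 in controls. The groups did not overlap, and the difference of -2.18 ± 0.48 log2 (4.53-fold, adjusted p 0.0189) left 2 of 3 declining joints within the control range. Ccl7 and Ccl2, attractants of monocytes, were lower by 1.33 and 1.17 log2, and Ccl20, which attracts Th17 cells and dendritic cells, by 1.12. Ccl12, a further monocyte attractant, was not called (-1.03 log2, adjusted p 0.152) and is taken up below. Of 18 cytokine receptor genes 3 were lower: Il4ra fell by 1.66 log2, the granulocyte growth factor receptor Csf3r by 1.41 and Csf2rb, the shared beta chain of the receptors for GM-CSF, IL-3 and IL-5, by 1.00, and none was higher. Without decline animal 10, 0 of the 19 cytokines, 0 of the 25 chemokines and 0 of the 18 receptors were called lower, with list medians of -0.01, -0.37 and -0.49 log2.

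Macrophage genes formed the list with the highest share of falls: 13 of 28 were lower and 0 higher in declining joints, and 26 of 28 estimates were below 0. The median over the list was -0.92 log2, beside 0.04 over all genes. In early joints 22 of the same 28 genes had been higher than in controls (median 1.21), and the median difference from control in decline was 0.23. Msr1, a scavenger receptor, had early values of 9.75, 9.42, 8.53, 9.20 and 9.24, declining values of 7.56, 7.90 and 6.73 and control values of 7.25, 6.55 and 6.33. Early and declining joints were apart, whereas the lowest declining joint lay within the control range. Its fall was 3.56-fold (-1.83 ± 0.34 log2, adjusted p 0.00981). Ms4a6b, a membrane protein of the same cells, fell by 2.13 ± 0.37 log2, and the lectin receptors Clec4e and Clec4d, which sense fungal and bacterial glycolipids, by 1.89 and 1.61. C3ar1, the receptor for complement fragment C3a, fell by 2.01 ± 0.28 log2 (adjusted p 0.003) and averaged 8.04 ± 0.44 (SD, n = 3) in decline against 10.06 ± 0.32 (SD, n = 5) in early joints.

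Cd53, a tetraspanin of leukocytes, stood within or below the control range in decline. Its early values were 9.91, 9.97, 8.66, 9.92 and 9.85, its declining values 7.66, 6.95 and 6.83, and its control values 7.14, 7.15 and 7.75. The fall of -2.52 ± 0.33 log2, or 5.73-fold, had an adjusted p of 0.00199 and held without decline animal 10 (-2.36, adjusted p 0.00962). The macrophage list gave the same direction in the alternative fits, with a median of -0.71 without decline animal 10, when 3 of the 28 falls were called, of -0.84 with the letter code and of -0.78 with the muscle and epidermis levels as covariates. With the letter code 8 of the 28 had an unadjusted p under 0.05 in this direction, beside 2.51% of all genes.

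**Figure D2:**
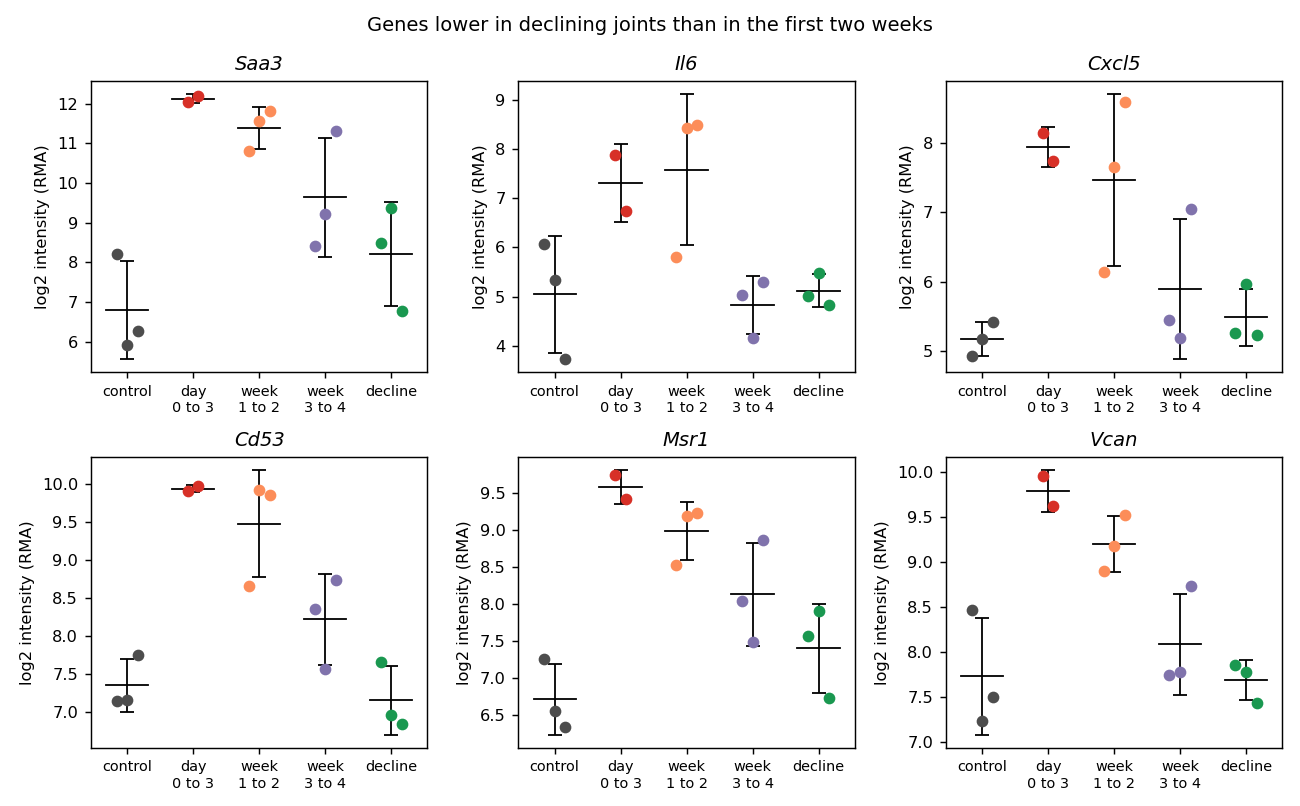
Log2 intensity of Saa3, Il6, Cxcl5, Cd53, Msr1 and Vcan in each of 14 joints, by group. Each point is 1 joint, and lines with bars are the group mean ± SD. In every panel the 3 declining joints lie below all 5 early joints, which for Saa3, Il6 and Cd53 was a condition of their choice. The joints of week 3 to 4 spread widely, with animal 60 at 11.31 for Saa3.

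Of 17 neutrophil genes 1 was lower (Csf3r) and the list median was 0.11, and in early joints 3 of the 17 had been higher than in controls. Of 22 interferon-induced genes 1 was lower, the antiviral Oasl2 with -0.97 log2 (adjusted p 0.0381), and 9 had been higher in early joints. Ifit3, a further interferon target, stayed above all controls in each of the 3 declining joints (9.44, 8.98 and 8.44, against 8.26, 7.50 and 7.38). Its difference from early joints was not called (-0.86 log2, adjusted p 0.0967). Of 12 acute phase genes 2 were lower, Saa3 and Ptx3, and Orm1, an acid glycoprotein of plasma, was 2.22-fold higher (adjusted p 0.0176) without a called early fall (-0.50 log2, adjusted p 0.155). In these 3 lists 0 genes were called lower without decline animal 10.

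Genes that build and cut the matrix made up the next group. Of 25 metalloproteinase, ADAMTS and TIMP genes 5 were lower and 1 higher, and 12 had been higher early. Mmp3 (stromelysin 1), which cleaves proteoglycans and activates other proteases, had early values of 11.70, 11.83, 10.10, 10.96 and 11.25 against 9.01, 9.54 and 7.92 in decline and 8.44, 6.71 and 6.60 in controls. Declining and early joints did not overlap, by the choice of genes, and 2 declining joints still exceeded all controls. The fall was -2.34 ± 0.51 log2 (5.08-fold, adjusted p 0.0186). Timp1, an inhibitor of these proteases, fell by 1.75 ± 0.41 log2 and kept 49.3% of its early log2 rise, with 9.68, 9.62 and 8.59 in decline and at most 7.79 in controls. The aggrecanase Adamts1 fell by 1.24 and Adamts12 by 0.70 log2. Timp4 went the other way, 0.86 log2 higher in decline after an early difference from control of -1.39. Without decline animal 10, 0 of the 25 were called lower or higher, and the list median was -0.52 log2.

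Of 26 matricellular and proteoglycan genes 6 were lower and 0 higher in decline, with a list median of -0.48, and 18 had been higher early. Vcan (versican), a large proteoglycan of provisional matrix, had early values of 9.95, 9.62, 8.90, 9.18 and 9.52 and declining values of 7.85, 7.78 and 7.43, with controls at 8.46, 7.23 and 7.50. All declining joints were within the control range. The fall was 3.36-fold (-1.75 ± 0.30 log2, adjusted p 0.00773). Periostin (Postn), secreted by activated fibroblasts and periosteum, fell by 1.91 ± 0.51 log2 from early values that all lay between 11.53 and 11.90. One control joint, at 10.42, exceeded every declining joint (10.24, 10.09 and 9.18), so that the control range for Postn is wide. Cthrc1 and lumican (Lum) fell by 1.55 and 1.10 log2. Of 23 collagen chains 1 was lower, the fibril-associated Col12a1 with -1.39 log2, although 11 of them had been higher early, and the median difference of the list from control was 0.26 in early and 0.29 in declining joints. Of 23 enzymes that fold and crosslink collagen 5 were lower (Plod2 by 1.48, Crtap by 1.01, Ppib by 0.97 and P4ha3 by 0.89 log2 among them) and 1 higher (Pcolce2). Genes of the endoplasmic reticulum and secretory pathway had estimates below 0 for all 25 members, of which 2 were called (Dnajb9 with -1.08 and Sec61a1 with -0.80 log2). Without decline animal 10, 3 of the 26 matricellular and proteoglycan genes were called lower, and 0 of the collagen chains, of the collagen enzymes and of the secretory genes.

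Of 18 genes of synovial fibroblasts 3 were lower and 0 higher. The hyaluronan synthase Has2 fell by 1.43 log2, the WNT antagonist Sfrp1 by 1.41 and Inhba, which encodes the subunit of activin A, by 1.87 ± 0.39. Inhba lay between 8.78 and 9.81 in early joints and at 8.09, 8.14 and 6.31 in decline, and its fall was -1.27 without decline animal 10 (adjusted p 0.0536), when 0 of the 18 were called. The list of the BMP, activin and TGF-beta pathway held 1 more fall, the type I receptor Tgfbr1 with -1.06 log2 (adjusted p 0.0103). Of 19 hypoxia and glycolysis genes 2 were lower and 1 higher, beside 2.36% and 2.89% of all genes. The list median was -0.12 log2, and 1 of the 19 had been higher early. Hif1a, the oxygen-regulated transcription factor, fell by 1.39 ± 0.28 log2 and the glucose transporter Slc2a1 by 0.66. The oxygen-sensing hydroxylase Egln3 was 1.62 log2 higher. Egln3 was 0.31 with the letter code in the fit. Igf1, a growth factor of connective tissue, fell by 0.93 ± 0.23 log2 (adjusted p 0.0343). Pappa, which frees such growth factors by cutting their binding proteins, was not called (-0.57 log2, adjusted p 0.117).

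The start regions of 4 genes are shown because the data turn on them: Saa3, Il6 and Mmp3 stood among the 10 largest falls, and Mmp13 had the largest early rise of the genes with an estimate of more than 50% left. Each line gives the 150 bases before the RefSeq start site on the GRCm38.p6 build, 5′ to 3′ along the gene's strand. Capitals mark matches, on either strand, to the motifs NF-kB (GGANTTTCC), C/EBP (TTGCNNAA), AP-1 (TGANTCA) and the TATA box (TATAAA), where N is any base.
Saa3 (chr7:46715677-46715826, minus strand): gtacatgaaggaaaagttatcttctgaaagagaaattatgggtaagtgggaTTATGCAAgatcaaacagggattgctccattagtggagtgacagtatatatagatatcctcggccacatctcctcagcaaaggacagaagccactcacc
Il6 (chr5:30012964-30013113, plus strand): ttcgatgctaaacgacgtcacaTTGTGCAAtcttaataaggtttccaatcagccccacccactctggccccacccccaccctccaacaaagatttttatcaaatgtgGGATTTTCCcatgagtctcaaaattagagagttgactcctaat
Mmp3 (chr9:7445672-7445821, plus strand): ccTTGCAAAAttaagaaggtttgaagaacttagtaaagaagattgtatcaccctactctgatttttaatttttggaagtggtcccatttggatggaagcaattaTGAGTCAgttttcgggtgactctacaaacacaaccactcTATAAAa
Mmp13 (chr9:7272364-7272513, plus strand): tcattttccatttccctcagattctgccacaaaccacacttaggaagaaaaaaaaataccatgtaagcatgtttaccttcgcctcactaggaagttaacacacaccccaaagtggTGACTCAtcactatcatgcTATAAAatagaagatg
The Saa3 stretch held 1 C/EBP match, beginning 99 bases before the start. The Il6 stretch held an NF-kB match at 43 bases and a C/EBP match at 128 bases. Both metalloproteinase stretches held an AP-1 match, at 46 bases in Mmp3 and 35 bases in Mmp13. Both also held the letters of the TATA box, at 7 bases in Mmp3 and 16 bases in Mmp13. Mmp3 had a C/EBP match at 148 bases as well. In the same stretch of all 32851 promoters of the table, the NF-kB letters occurred in 0.688%, those of C/EBP in 5.46%, those of AP-1 in 4.24% and the TATA box in 7.57%. A match describes letters only.

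To ask whether more or less than 50% of an early change was left, declining joints were compared with the midpoint between early joints and controls. This contrast called 24 genes above (0.12%) and 4 below (0.0201%) the midpoint. Of the early rises, 738 of 2046 had an estimate of more than 50% left and 0 were called as such. Of the early falls, 1113 of 2162 did and 0 were called. By list, the estimate was more than 50% for 5 of 8 early rises among osteoclast genes, 6 of 6 among tendon genes, 9 of 11 among collagen chains, 7 of 9 among interferon-induced genes, 4 of 7 among osteoblast genes and 2 of 22 among macrophage genes. Genes are named below for the size of their early change and their estimate, not from a call.

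Mmp13, the collagenase of cartilage and bone remodelling, had early values of 11.00, 11.47, 11.30, 11.81 and 11.80, declining values of 10.35, 10.20 and 8.76 and control values of 8.75, 6.79 and 7.24. It was lower than in early joints by 1.71 ± 0.42 log2 (adjusted p 0.0309), and 2 of the 3 declining joints stood more than 1 log2 unit above the highest control. The estimate left 56.0% of the early rise. Cathepsin K (Ctsk), the collagen-degrading protease of osteoclasts, lay between 11.08 and 11.47 in early joints and at 10.14, 10.35 and 9.75 in decline, with controls at 9.07, 6.57 and 8.01. All 3 declining joints lay above all controls and below all early joints. The difference from early joints was not called (-1.23 ± 0.40 log2, adjusted p 0.0867). The difference from control was 2.20 log2 (95% CI 1.25 to 3.14, adjusted p 0.0975), and 2.37 without decline animal 10 (adjusted p 0.0353).

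The osteoclast genes Atp6v0d2 and Acp5 had group means in the same order. Atp6v0d2, a subunit of the proton pump that acidifies the resorption pit, lay at 9.45, 8.99 and 8.12 in decline, above controls at 7.63, 6.69 and 6.79 and overlapping the early range of 9.16 to 10.40. Its difference was -1.04 log2 from early joints (adjusted p 0.0931) and 1.82 from control (95% CI 1.00 to 2.63). Acp5, the tartrate-resistant acid phosphatase used to stain osteoclasts, had 9.68, 9.47 and 9.08 in decline, 9.78 to 10.20 in early joints and at most 8.53 in controls, which left 73.9% of the early rise. Over the list of 20 osteoclast genes, 8 had been higher early, and 0 were lower and 0 higher in declining than in early joints (median -0.39, with 16 estimates below 0). Without decline animal 10, 3 of the 20 (Ctsk, Acp5 and Atp6v0d2) were called higher than in controls.

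Ibsp, bone sialoprotein of osteoblasts, had 11.91, 11.75 and 11.72 in decline and 11.67, 11.90, 12.23, 12.00 and 11.85 in early joints, all above the controls at 11.23, 10.41 and 10.53. Early and declining joints overlapped, with a difference of -0.13 log2 (95% CI -0.53 to 0.26, adjusted p 0.726), and 89.0% of the early rise was left. The osteoblast transcription factor Sp7 differed by -0.25 log2 (adjusted p 0.486). Of 18 osteoblast and mineralisation genes 2 were higher and 0 lower in decline: Alpl, tissue-nonspecific alkaline phosphatase, by 0.98 ± 0.22 log2 and Dlx5, an osteoblast transcription factor, by 0.82 ± 0.18. Alpl had 8.99, 9.11 and 9.68 in decline and 7.78 to 8.72 in early joints, with controls between 8.45 and 8.77, so that the declining joints exceeded both groups. Without decline animal 10, 0 of the 18 were called higher or lower. Alpl was then 0.77 log2 higher (adjusted p 0.103) and Dlx5 0.83 log2 higher (adjusted p 0.0507). Among 10 osteocyte genes, the transcription factor Irx5 was higher by 1.04 log2, and Sost, the WNT inhibitor made by osteocytes, was not called (0.27 log2, adjusted p 0.409). Of 10 tendon genes 6 had been higher early, beside 10.3% of all genes. In decline 0 of the 10 were called lower or higher, near the 2.36% and 2.89% of all genes. The corneal and tendon proteoglycan Kera lay at 9.52, 9.53 and 8.59 in decline against 9.48 to 11.04 early (-1.17 log2, adjusted p 0.191).

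The remaining genes with a large early change and an estimate of more than 50% left were 4 genes of general cell functions, the chemokine Ccl12 and the muscle gene Mylk4. Eef1b2 (translation elongation), Snrpe (splicing), Ppp1r11 (a phosphatase inhibitor) and Rpl41 (ribosome) had differences from early joints of -1.38, -1.20, -1.32 and -0.79 log2, of which that of Ppp1r11 was called (adjusted p 0.0335). Snrpe rested on 1 joint: its declining values were 11.18, 11.02 and 8.44 against early values between 11.31 and 11.54, and without decline animal 10 the difference was -0.31. Ccl12 lay at 8.18, 9.03 and 7.26 in decline and overlapped both early joints (8.60 to 9.62) and controls (5.69 to 7.36). Mylk4, a kinase of striated muscle, was the largest early fall with an estimate of more than 50% left, at 6.89, 8.73 and 5.75 in decline against 4.98 to 6.95 early and 8.40 to 9.87 in controls (1.18 log2, adjusted p 0.26). The declining joints for Mylk4 overlapped both other groups.

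**Figure D3:**
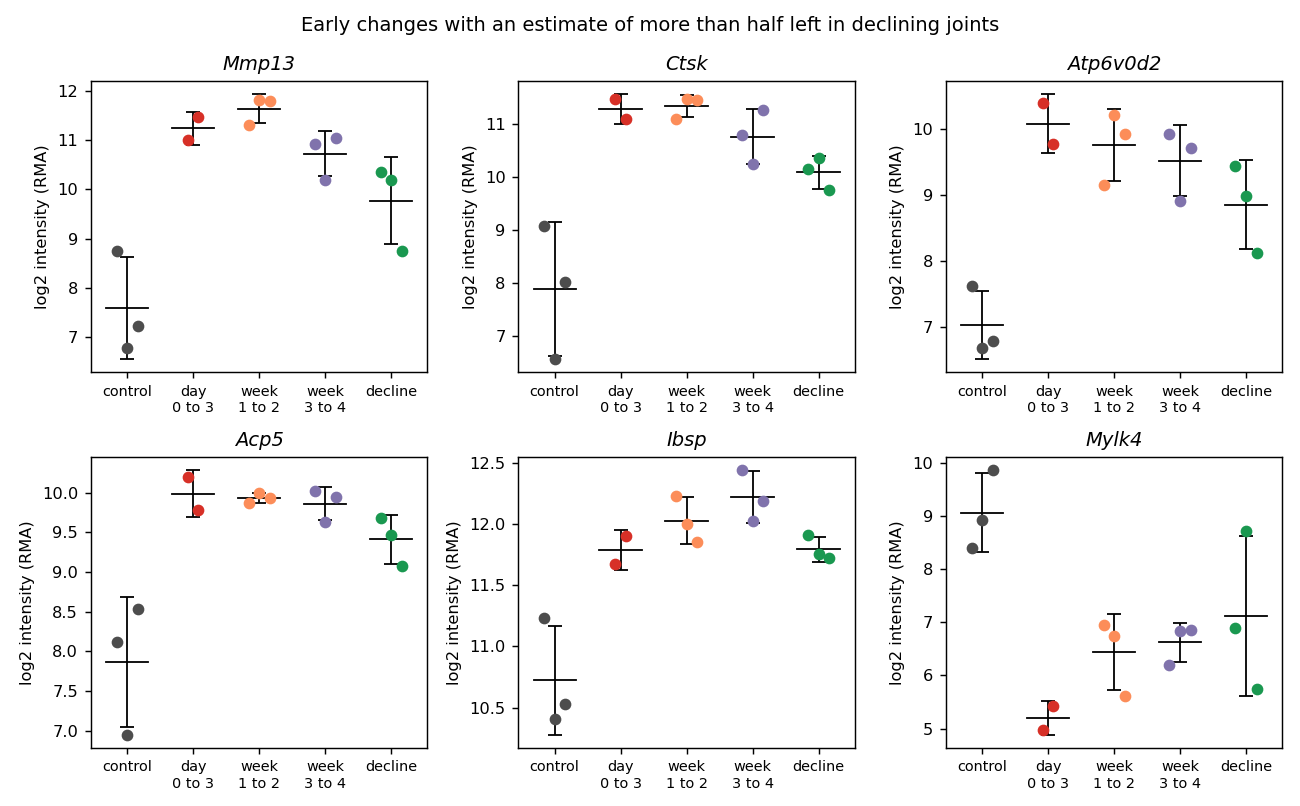
Log2 intensity of Mmp13, Ctsk, Atp6v0d2, Acp5, Ibsp and Mylk4 in each of 14 joints, by group, with the group mean ± SD. For the first 5 genes all declining joints lie above all 3 controls, by as little as 0.01 for Mmp13 in decline animal 10 (8.76 against 8.75). For Mylk4 the declining joints run from 5.75 to 8.73.

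At the other end, 10 genes with an early change were called past the midpoint towards control, and all had declining means beyond the control mean. The largest differences were those of Apoc1, an apolipoprotein, at 10.01, 10.79 and 9.63 in decline against 6.82 to 7.68 in early joints and 8.26, 7.75 and 9.45 in controls (2.98 ± 0.37 log2, adjusted p 0.00169), and of Rny1, a small non-coding RNA, with 2.88 ± 0.36. Fa2h, which hydroxylates the fatty acids of skin and myelin lipids, was higher by 2.58 ± 0.29 log2, the small nucleolar RNA Snord49b by 2.50, the hepcidin gene Hamp2 by 2.24 ± 0.21 (adjusted p 0.00064), the histone gene H4c8 by 1.58 and Lratd1 by 1.51. On the falling side stood Bub1, a mitotic checkpoint kinase, with 4.96, 4.64 and 5.32 in decline, 6.10 to 6.33 in early joints and 5.27 to 5.69 in controls (-1.24 ± 0.15 log2, adjusted p 0.00157). Slc30a7, a zinc transporter of the secretory pathway, fell by 1.20, and Mcam, an adhesion molecule of endothelium and pericytes, by 0.86 log2. With the letter code in the fit the differences were 1.90 for Apoc1, 2.47 for Rny1, 0.95 for Fa2h and 1.80 for Snord49b. They were 1.64 for Hamp2, 1.58 for H4c8, 0.99 for Lratd1, -1.25 for Bub1, -1.22 for Slc30a7 and -0.89 for Mcam. The 2 joints of week 3 to 4 with the code of the declining joints read 8.18 and 8.60 for Fa2h, against 6.75 in the third. For Apoc1 they read 9.64 and 9.83 against 8.66.

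The genes of RNA and protein handling among the largest falls need their single joints. Mrps18c, of the mitochondrial ribosome, and Lsm3, of the splicing machinery, fell by 2.58 and 2.39 log2, but their declining values were 9.60, 9.56 and 6.0 and 8.57, 8.88 and 5.31, so that decline animal 10 set much of the size (-1.38 and -1.25 without it). The prefoldin subunit Pfdn5 fell by 2.25 ± 0.41 (7.77, 8.75 and 7.08, against 9.86 to 10.20 early) and the small nucleolar RNA Snora31 by 2.49 ± 0.34. Rplp0, a ribosomal stalk protein, fell by 2.94 on 1 probe set and differed by -0.08 on its other (adjusted p 0.862), and its value is uncertain. Of 17 ribosomal protein genes 3 were lower (Rplp0, Rpl5 and Rpl19) and 1 higher (Rps19). Crabp2 fell from 10.17 to 11.23 in early joints to 8.81, 8.95 and 7.34 in decline, a difference of -2.44 ± 0.48 log2 (adjusted p 0.0124).

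Epidermal genes gave the largest rises in these skinned joints, and among the arthritic joints their levels followed the letter code. Of 31 epidermis genes 27 were higher and 0 lower in declining joints, with a list median of 3.01 log2, while 0 of 31 had been called lower or higher in early joints against control (median -0.99). Krt2, a keratin of the upper epidermis, had 4.90, 5.47, 5.35, 4.77 and 4.82 in early joints and 11.04, 11.79 and 11.39 in decline, an 81.2-fold difference (6.34 ± 1.02 log2, adjusted p 0.00604). Controls were divided, at 5.70, 5.74 and 10.04. Krt24, Krtdap, Krt1, Mt4, Krt10, Lce1a1, Dapl1, Krt5 and Lce1d, which encode further keratins, cornified envelope proteins and other products of keratinocytes, followed with 6.12 to 4.89 log2. The mean over the list was between 5.89 and 6.26 in the 5 early joints, 8.86, 9.78 and 8.87 in decline, 9.16 and 9.14 in the joints of week 3 to 4 that share the code of decline, and 6.43 in the joint of week 3 to 4 with the code of the early joints. Of the controls, animals 1 and 2 stood at 6.34 and 6.43 and animal 3 at 8.54. With the letter code in the fit the list median was 0.30, with Krt2 at 1.62 and Krtdap at 1.67. Of 12 hair follicle genes 5 were higher, with Tchh, trichohyalin of the inner root sheath, at 2.27, Krt25 at 1.78 and Krt27 at 1.16 log2. The part of the amount of skin in other differences was not tested beyond these fits.

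Muscle genes had estimates above 0 in decline against early joints for 29 of 31 members, and adipocyte genes for 19 of 23, where the median over all genes was 0.04. Of these, 3 and 4 were called higher, beside 2.89% of all genes, and 0 and 2 without decline animal 10. The list medians were 0.72 and 0.33 log2. With the muscle and epidermis levels as covariates they were 0.11 and 0.17, and 0 were called. The muscle list itself forms 1 of these covariates. In early joints 19 of 31 skeletal muscle fibre genes had been lower than in controls (median -1.45), and in decline 3 were called higher than early and the median difference from control was -0.63. These were the myosin Myh2 (0.83 log2), Actn2 (1.28), an anchor of actin at the Z disc, and the calcium release channel Ryr1 (0.87), each with an adjusted p between 0.0487 and 0.0493. The mean over the list was 8.23 and 8.34 at day 0 to 3, 8.98 to 9.78 at week 1 to 2, 9.36 to 10.17 in decline and 10.13 to 10.77 in controls, so that declining and week 1 to 2 joints overlapped. Myl2, a myosin light chain of slow muscle, illustrates this with 7.03 and 7.09 at day 0 to 3, 10.23, 10.40 and 9.43 at week 1 to 2, 10.49, 10.76 and 9.77 in decline and 9.97 to 10.98 in controls. Its difference over all early joints was not called (1.5 log2, adjusted p 0.225). Ndrg2, a stress-responsive gene abundant in muscle and brain, was higher by 1.01 ± 0.24 log2 and kept 47.9% of its early fall. Of 23 adipocyte genes 13 had been lower early and 4 were higher in decline, namely Elovl3 (1.94), Cidea (1.46), the hormone-sensitive lipase Lipe (0.62) and the fatty acid synthase Fasn (0.55 log2). For Elovl3 and Cidea, which skin glands also express, the differences were -0.14 and 0.37 with the letter code in the fit, against 0.88 for Lipe and 0.62 for Fasn.

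Single genes of cartilage and marrow that had been low early overlapped the controls in decline. Chad (chondroadherin), a matrix protein of cartilage and tendon that binds cells to collagen, was at 7.48 and 7.57 at day 0 to 3, 9.31, 8.96 and 8.86 at week 1 to 2, 10.36, 10.36 and 10.09 in decline and 10.26, 10.59 and 10.65 in controls. Early and declining joints did not overlap, and the difference of 1.84 ± 0.36 log2 (3.57-fold, adjusted p 0.0121) was 2.44 with the letter code in the fit. Of 25 cartilage genes 2 were higher and 0 lower, the other being the chondrocyte proteoglycan Snorc (0.68 log2, adjusted p 0.0498). Hapln1, which links aggrecan to hyaluronan, did not differ by the test (-0.11 log2, 95% CI -0.73 to 0.51). Vpreb1, part of the surrogate light chain of B cell precursors, read 8.67, 8.95, 9.39, 9.12 and 8.94 in early joints, 11.42, 10.22 and 11.68 in decline and 10.94, 12.05 and 10.87 in controls. Each declining joint was above every early joint, with a difference of 2.09 ± 0.37 log2 (4.26-fold, adjusted p 0.00846). Igll1, the other component of the surrogate light chain, was higher by 0.73 log2 (adjusted p 0.0326). Vpreb1 and Igll1 were the 2 genes called higher among 19 lymphocyte and B cell precursor genes, and 0 were lower. The median of that list was 0.04 log2, and 7 estimates were below 0. Klf1, the master regulator of red cell genes, was higher by 0.96 log2 (adjusted p 0.0294). It was the 1 call among 11 erythroid genes, whose median was 0.36. Of all genes 2.89% were called higher.

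**Figure D4:**
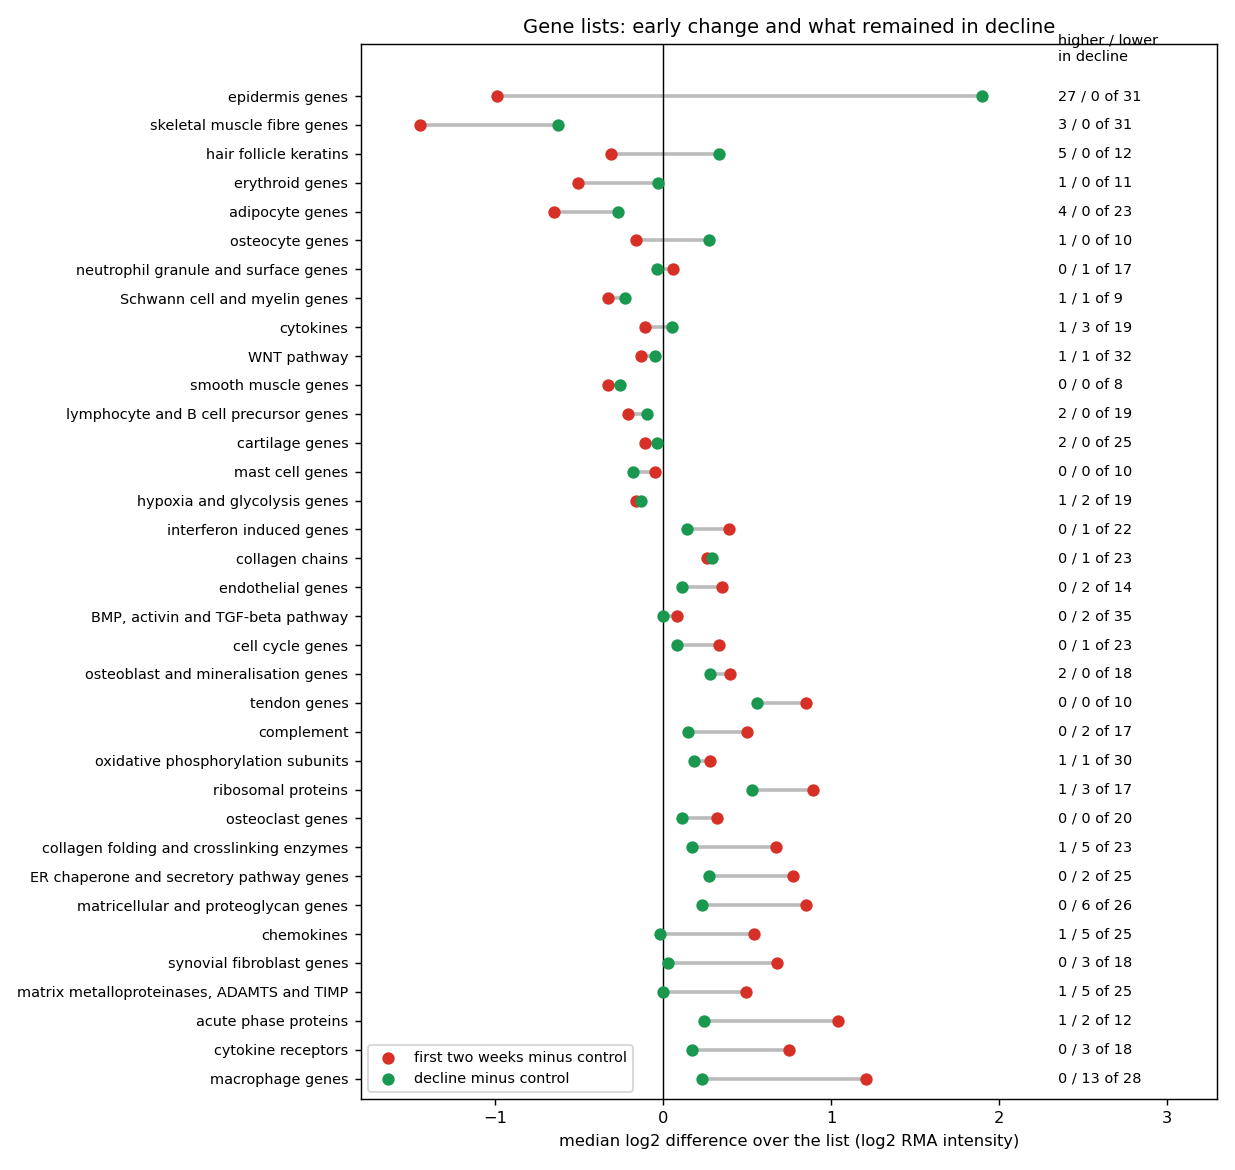
Median log2 difference from control over each of 35 gene lists, in early joints (red) and declining joints (green), ordered by the difference between declining and early joints. Numbers at the right give how many members were called higher and lower in declining than in early joints. Macrophage genes moved from 1.21 to 0.23 (13 of 28 lower), osteoclast genes from 0.32 to 0.11 (0 of 20), and epidermis genes from -0.99 to 1.90 (27 of 31 higher).

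**Figure D5:**
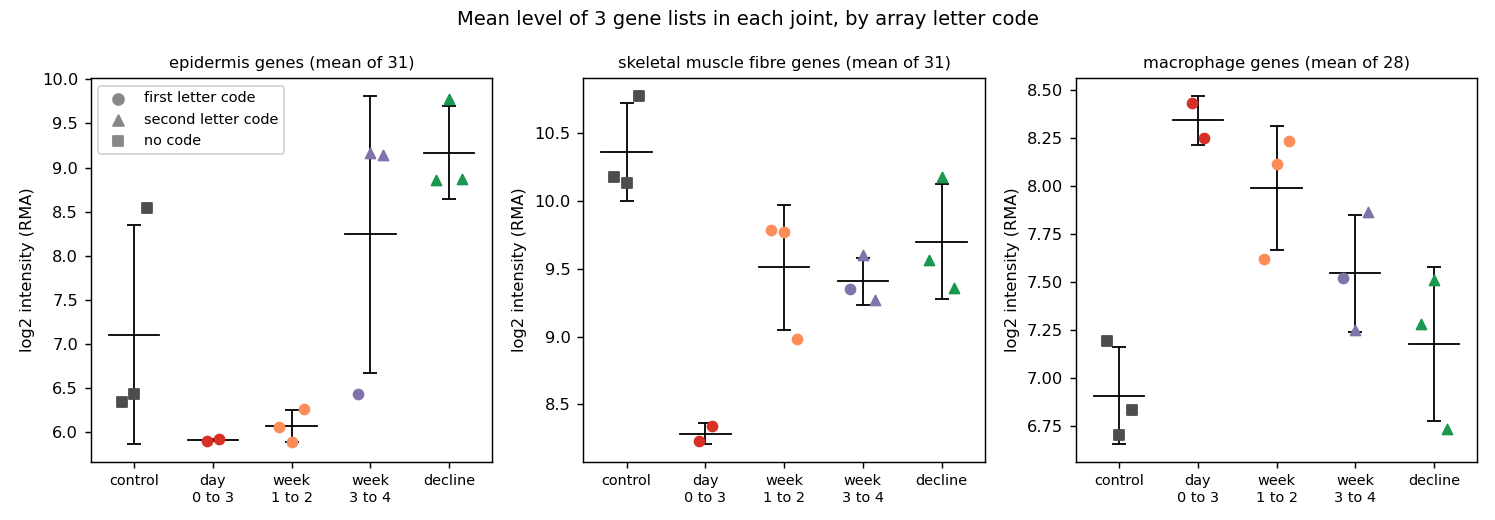
Mean log2 intensity over 31 epidermis, 31 skeletal muscle and 28 macrophage genes in each of 14 joints, with group mean ± SD, and the marker shape giving the array letter code. Within week 3 to 4, the epidermis level is 6.43 in animal 54, with the early code, and 9.16 and 9.14 in the other joints. The macrophage levels there are 7.52 against 7.25 and 7.86. Controls, which carry no code, lie at 6.34, 6.43 and 8.54 for epidermis. Code and variation between joints cannot be told apart here.

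The remaining lists held few calls. Of 32 WNT pathway genes 1 was lower (Sfrp1) and 1 higher (Ndrg2), of 35 genes of the BMP, activin and TGF-beta pathway 2 were lower, of 23 cell cycle genes 1 was lower (Bub1), of 17 complement genes 2 (C3ar1 and C1s1) and of 14 endothelial genes 2 (Emcn and Aplnr). Mast cell and smooth muscle genes had 0 calls among 10 and 8. Of 30 subunits of oxidative phosphorylation 1 was lower (Cox4i1) and 1 higher (Cox6a2), and of 9 Schwann cell genes 1 was lower (Pmp22) and 1 higher (Mbp).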

How the data were processed

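Expression was measured with Mouse Gene 1.0 ST arrays in 15 tarsal joints, 1 per animal. The deposited values are log2 intensities that the authors made with RMA (affy, R 2.15), which corrects background, normalises by quantiles and summarises probes. Groups came from the sample labels. The members and the 35 gene lists were chosen with earlier results of these data known. Of 35556 probe sets, 21789 name 1 gene (gene identifiers updated through RefSeq), and each of 19938 genes took its brightest probe set by mean over the 14 arrays. No low-value filter was applied. The fit used limma 3.58.1 in R 4.3.3 (lmFit, eBayes) over 14 arrays in 4 groups, early (n = 5), week 3 to 4 (n = 3), decline (n = 3) and control (n = 3), with 4 contrasts, two-sided, and Benjamini-Hochberg adjustment over all genes. Genes named are the 10 largest rises and falls without overlap, up to 10 on each side of the midpoint, up to 4 per list and index genes of the study. Ccl2, Ccl11, Ptx3, Ccl20, Clec4d, Lum, P4ha3, Adamts12, Timp4, Sec61a1, Myh2, Ryr1 and Fasn, and those in brackets without values, were named after their values were seen. On simulated data with 100 genes changed 4-fold and 100 changed 2-fold among 19938 genes, the comparison of declining with early joints called 98 and 73, with 7 false calls. No 2 arrays held more than 2.17% identical values. Each joint is 1 animal. Figures were drawn with matplotlib 3.10.9.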

Additional observations from a re-analysis of the deposited data

Results flagged for a closer look

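Among 107 genes named, 10 had 1 of the 5 early joints far from the other 4, in that its gap to the nearest joint, as a share of the range of the group, was above Dixon's 95% critical value, which chance exceeds in about 1 in 20 groups. In 8 of the 10 this was the lowest value of animal 33 (week 1 to 2): Cd53 at 8.66 (others 9.85 to 9.97), Ccl7 at 7.33, Ccl20 at 5.73, Il1b at 7.31 (others 8.94 to 9.33), Clec4d at 7.08, Clec4e at 5.82 (others 7.55 to 8.12), Crtap at 7.83 and Pfdn5 at 9.86. The other two were Mcam at 8.80 in animal 16 and Krt27 at 6.55 in animal 52. Myl2 differed between the early phases, by -2.96 log2 for day 0 to 3 minus week 1 to 2 (adjusted p 0.0282 by limma), so that its difference between declining and early joints depends on the phase taken.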

How the results depend on the processing

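For declining against early joints, 1048 genes became 172 with the failed array of animal 57 added, 320 against day 0 to 3 alone, 295 against week 1 to 2 alone, 365 with the plain ANOVA, 2697 with array weights, 691 with arrays centred on their medians, 483 with a 2-fold limit added, 0 with the letter code and 3 with muscle and epidermis means as covariates. Leaving out 1 array gave 490 to 1331. It gave 537 without animal 16, 510 without animal 18, 515 without animal 43, 505 without animal 52 and 490 without decline animal 10. With animal 57 added, 0 of 28 macrophage genes were called lower (list median -0.65) and 18 of 31 epidermis genes higher. For early against control, 4208 became 355 with animal 57, 1559 and 2005 with either phase alone, 397 with the covariates and 1075 with the 2-fold limit, and 2163 to 5664 without 1 array. Median centring split these calls into 2058 higher and 1336 lower (main 2046 and 2162), and a group mean of at least 6 into 2091 and 1399. For decline against control, 0 became 30 with array weights, 1 with median centring, 88 with a second quantile normalisation, 1 with all probe sets, and 0 to 383 without 1 array. The midpoint contrast, with 28, gave 13 with animal 57, 153 with the compared groups alone, 12 with week 1 to 2 alone, 0 with ANOVA, 175 with array weights, 88 with the second quantile normalisation, 90 with a group mean of at least 6, 0 with the letter code, 1 with the covariates, and 5 to 180 without 1 array. Leaving out decline animal 10 and control animal 2, the passing arrays of narrowest range, gave 873, 3708, 197 and 60 for the 4 comparisons. One mean and SD for every array gave 969, 3327, 49 and 69. Both settings were chosen after seeing the data.

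Among named genes the sign turned with the covariates for Krt24 (-0.02), Krt1 (-0.25), Mt4 (-0.12), Lce1a1 (-0.11), Mylk4 (-0.57), Ibsp (0.24) and Hapln1 (0.50), and with the letter code for Elovl3 (-0.14), Ibsp (0.20) and Hapln1 (0.44). Ibsp also turned with animal 57 (0.41), against day 0 to 3 (0.01), with the second quantile normalisation (0.09) and with one mean and SD (0.25). Sp7 turned against day 0 to 3 (0.13). Hapln1 also turned with animal 57 (0.14), without animal 33 (0.07) and without decline animal 10 (0.18, also with control animal 2 left out; single arrays left out gave -0.31 to 0.18), against day 0 to 3 (0.24) and with array weights (0.25). Where a cause is not given by the construction of the alternative, the cause was not tested. No paired analysis was possible because the groups share no animal numbers.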

Other observations

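Of the 28 genes called against the midpoint, 18 had not been called in early joints against control, 17 above and 1 below it. They were chosen after their values were seen. Of the 17, 4 are described here. Elovl4, an elongase of very long fatty acids, read 8.25, 9.74 and 8.57 in decline, 4.78 to 5.27 in early joints and 4.73 to 6.97 in controls (3.78 log2 between declining and early joints, limma adjusted p 0.0058). Far2, which reduces fatty acids to alcohols for wax esters, differed by 3.38 log2, Elovl6 by 2.94 and the ceramide enzyme Sptlc3 by 2.56. Their declining joints lay above all controls and above the single joint of week 3 to 4 with the code of the early joints (Elovl4 at 5.89, Elovl6 at 7.44), and the other two joints of week 3 to 4 read 8.30 and 9.04 for Elovl4 and 9.59 and 9.81 for Elovl6. With the letter code in the fit the differences were 1.00 for Elovl4, 0.97 for Far2, 0.68 for Elovl6 and 0.59 for Sptlc3. The gene below the midpoint was the phosphatase Dusp12, at 5.35, 5.43 and 5.11 in decline, 6.0 to 6.33 in early joints and 5.69 to 6.03 in controls, with the same difference of -0.87 log2 with and without the letter code.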
